A study of Mus musculus with 39 samples.

Results

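Cells of one stem cell-like group from the irradiated small intestine were divided by the level of Cdkn1a, the gene of the cell cycle inhibitor p21. Of 39 sequenced cells, 22 had been placed by the study in Cluster 1, the group with the higher levels of intestinal stem cell (ISC) genes, and 15 in Cluster 2. Within Cluster 1, 10 cells had Cdkn1a at 10 FPKM or more and are called Cdkn1a-positive, and 10 had it under 1 FPKM and are called Cdkn1a-negative. FPKM divide the fragments of a gene by its transcript length and by the cell's total. The remaining 2 cells of Cluster 1 lay between these limits and were left out. All cells were tdTomato+ and Sca1- and came from crypts of mice with the alleles Lgr5-EGFP-Ires-CreERT2:Rosa-lsl-tdTomato. With these alleles tamoxifen lets a Cre recombinase under control of the Lgr5 locus switch on a red reporter for good in Lgr5-expressing cells and their descendants. The mice had received tamoxifen 24 h before total body irradiation (TBI) with 10 Gy, and the cells were sorted 48 h after it. Every cell thus carried the same alleles and had the same treatment, and the sides differed by a measured level and not by a condition. Unirradiated cells were not analysed here. No animal is named for any cell, so the cells count as 1 biological sample. SDs are therefore given over cells, and no p-value was computed.

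The sides were selected on Cdkn1a, so its own difference is a description of that selection. In the Cdkn1a-positive cells Cdkn1a (Entrez Gene 12575; chromosome 17, 29090986 to 29100722, plus strand, mm10) had a lowest value of 11.3 FPKM, a median of 58.1 FPKM and a highest value of 213 FPKM, from 71 to 1904.5 estimated counts. In the Cdkn1a-negative cells it was at 0 in 6 cells and reached 0.246 FPKM, from 2 counts, in cell 95. A single count was worth 0.117 to 0.145 FPKM in the 3 negative cells that had 1, so the lower limit of 1 FPKM stood for several reads at this depth. Just inside the limits lay cell 71 (11.3 FPKM) and cell 95, and just outside them cell 72 (8.49 FPKM) and cell 76 (1.61 FPKM). Cluster 2 offered no comparison by the same limits, because its lowest cell had 1.34 FPKM. Its median was 78.0 FPKM and its highest value 384 FPKM.

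p21 binds and inhibits cyclin-dependent kinases and can hold a cell in G1 or G2. Its gene is one of the best known targets of p53, a transcription factor that is stabilised when DNA breaks. Other p53 targets encode Mdm2, the ubiquitin ligase that returns p53 to low levels, and pro-apoptotic proteins such as Bax. In crypts, irradiation leads to p53-dependent arrest and death of dividing cells, and the survivors later rebuild the epithelium. Within Cluster 1 the following values describe which other genes accompanied Cdkn1a RNA in single cells.

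p53 binds DNA as a tetramer at pairs of a 10-base element, the p53 decamer. The 250 bases before the start are shown for Cdkn1a, which divided the cells, and for Mdm2 and Bax, whose differences between the sides are among those described below. Sequences are from RefSeq in GRCm38.p6, printed 5′ to 3′ on the strand of the gene, and capitals mark matches to the consensus of the decamer.
Cdkn1a (chr17:29090729-29090978, plus strand): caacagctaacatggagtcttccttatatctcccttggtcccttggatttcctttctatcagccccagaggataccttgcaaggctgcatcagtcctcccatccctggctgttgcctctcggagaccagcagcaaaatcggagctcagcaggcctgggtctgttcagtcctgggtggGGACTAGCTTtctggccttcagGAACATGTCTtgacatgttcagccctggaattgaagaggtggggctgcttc
Mdm2 (chr10:117710759-117711008, minus strand): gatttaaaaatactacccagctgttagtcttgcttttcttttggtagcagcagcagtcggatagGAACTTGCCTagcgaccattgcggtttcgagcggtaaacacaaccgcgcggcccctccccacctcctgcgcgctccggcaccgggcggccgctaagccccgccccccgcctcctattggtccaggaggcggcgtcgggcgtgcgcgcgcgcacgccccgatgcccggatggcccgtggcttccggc
Bax (chr7:45466899-45467148, minus strand): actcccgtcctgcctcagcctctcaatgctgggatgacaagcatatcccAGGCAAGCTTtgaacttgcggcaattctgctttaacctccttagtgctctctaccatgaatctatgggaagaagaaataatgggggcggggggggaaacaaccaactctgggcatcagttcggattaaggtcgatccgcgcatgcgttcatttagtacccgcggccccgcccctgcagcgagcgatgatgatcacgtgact
The Cdkn1a window held a pair of decamers separated by 12 bases, and the windows of Mdm2 and Bax held 1 decamer each, whereas that of Phlda3, a further target described below, held 0. A decamer, which reads as its own reverse complement pattern and was therefore found once for both strands, occurred in 7.18% of 27025 promoter windows of this length. Among the p53 target genes listed here, Cdkn1a included, 37 of 45 had a window, and 11 of these (29.7%) held a decamer. Of the windows of all genes at least 1 log2 unit higher in Cdkn1a-positive cells 6.87% held it, and of those lower by as much 6.80%. A match describes letters and is no evidence of binding, and p53 sites further away were not searched.

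Depth overlapped between the sides. Estimated counts on genes were 2533503 to 3899838 per positive cell (median 3310548) and 2867814 to 3903971 per negative cell (median 3649168). A gene was taken as detected at 1 FPKM or more, and cells of the sides had 3287 to 5708 (median 4654.5) and 4308 to 5502 (median 4795) detected genes. After thinning every cell to 2000000 reads the medians were 4648.5 and 4773.5 genes. Cells resembled each other only moderately, with a Pearson correlation of log2(FPKM + 1) across genes between 0.484 and 0.614 for any pair of cells in Cluster 1. Olfm4, a marker of crypt base stem cells and of the kind of gene on which the study formed the clusters, describes the label and is no independent check of it. It was detected in all 20 cells, at 135 to 3721 FPKM (median 1102) in positive and at 669 to 3154 FPKM (median 1275) in negative cells, and the sides overlapped. In Cluster 2 its median was 12.5 FPKM.

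Genes were compared by the difference in mean log2(FPKM + 1), positive minus negative. The added 1 makes differences of weakly expressed genes smaller. Of 9202 genes that averaged 1 FPKM or more across Cluster 1, 886 (9.63%) were higher by at least 1 log2 unit in Cdkn1a-positive cells, Cdkn1a among them, and 1248 (13.6%) were lower by as much. These shares are the background for every list below and show how far 2 sets of 10 single cells lie apart without any test. The median difference over all genes was -0.08. Apart from Cdkn1a, 0 genes had every positive cell above every negative cell, and 0 had every positive cell below. For some genes the number of positive cells above or below every negative cell is given in what follows. How many of all genes reach such numbers was not counted, so they describe single genes only.

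p53 target genes other than Cdkn1a were higher in the positive cells more often than lower. Of 44 such genes in use, 11 (25%) were higher by at least 1 log2 unit and 1 (2.27%) was lower. Over all genes these shares were 9.63% and 13.6%. Of the 44, 30 lay above 0, as did 4232 of all 9202 genes. The median difference of the 44 was 0.36. Part of the count rested on cell 66. Without it, 7 of the 44 were higher and 3 lower, while the background was 9.56% and 14.6%. The genes that no longer reached 1 log2 unit were Ccng1 (0.90), Slc19a2 (0.70), Btg2 (0.68) and Polk (0.57), and Plk3 (-1.04) and Eda2r (-1.01) came to be counted as lower. The 3 genes whose difference exceeded the pooled SD over cells, Mdm2, Bax and Phlda3, kept differences of 2.63, 1.65 and 1.76 without this cell. Of all 9202 genes, 112 were higher and 168 lower by at least 1 log2 unit and by more than their pooled SD.

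**Figure D1:**
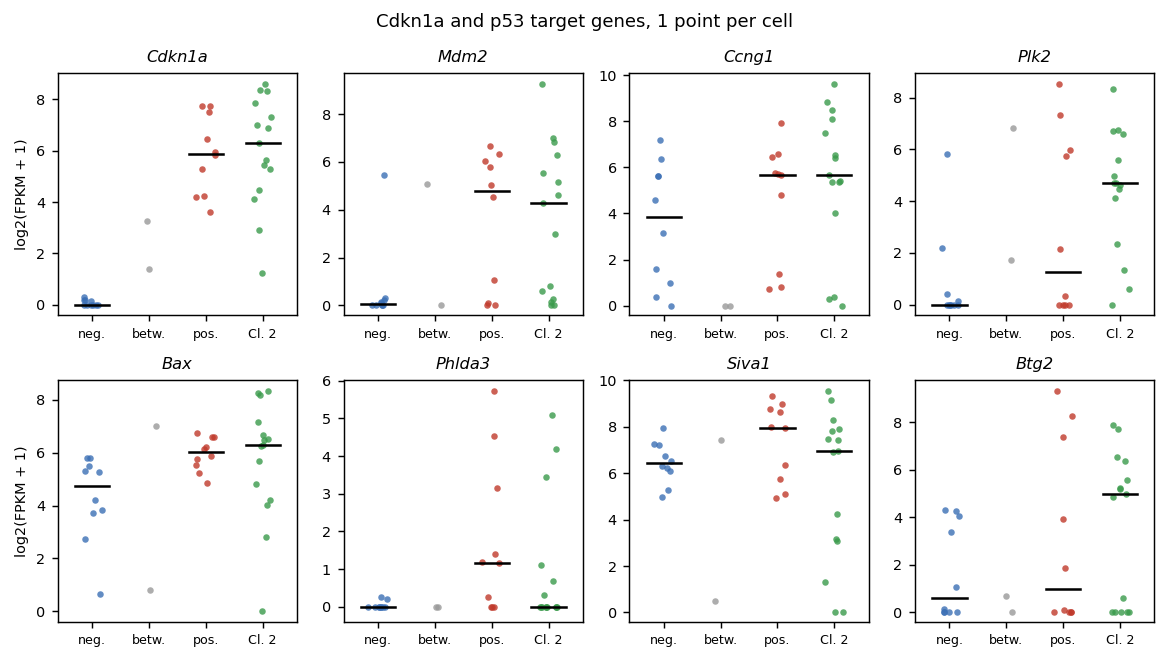
Level of Cdkn1a and 7 p53 target genes in single cells, as log2(FPKM + 1). Each point is a cell in the Cdkn1a-negative (neg., 10 cells), between the limits (betw., 2), Cdkn1a-positive (pos., 10) or Cluster 2 (Cl. 2, 15) set, and black lines are medians. Mdm2 is detected in 7 positive and 1 negative cells, while Bax is detected on both sides and lies higher in the positive cells.

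Among the genes of arrest and feedback, 5 of 18 (27.8%) were higher and 0 lower, beside 9.63% and 13.6% of all genes. The median difference of the 18 was 0.53. Mdm2 (Entrez Gene 17246), the main negative regulator of p53, had 0, 26.96 and 100.9 FPKM as lowest, median and highest value in positive cells. In negative cells the values were 0, 0.0381 and 43.1 FPKM. It was detected in 7 of 10 positive cells (70%, exact 95% interval 34.8 to 93.3) and in 1 of 10 negative cells (10%, 0.253 to 44.5), and its difference of 2.93 exceeded the pooled SD of 2.37. The lone negative cell was cell 60, at 43.1 FPKM of Mdm2 and 0 FPKM of Cdkn1a, whereas 3 positive cells lacked detected Mdm2. Intervals of shares cover counting error only. Plk2, a kinase of the stress response, was detected in 5 and 2 cells, with a highest value of 365 FPKM in positive and 56.2 FPKM in negative cells. Its difference of 2.15 lay within the pooled SD of 2.80. Btg2, an antiproliferative gene, was detected in 5 cells on each side, and its difference of 1.37 rested on high levels in a few positive cells, up to 639 FPKM in cell 66 against at most 18.9 FPKM in any negative cell. Ccng1, which encodes cyclin G1, was detected in 8 and 7 cells with medians of 50.6 and 15.4 FPKM and a difference of 1.03. Gtse1, a microtubule-binding protein that also acts on p53, had a difference of 1.19.

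The remaining members of this list differed by less than 1 log2 unit. Trp53inp1 was detected in 2 positive and 0 negative cells (difference 0.79), and Sesn2, Sesn1 and Ppm1d in at most 2 cells of either side. Zmat3 was detected in 4 cells on each side. Sfn, the 14-3-3 protein linked to G2 arrest, was detected in 7 and 9 cells, with a difference of -0.51. Gadd45a was detected in 6 cells on each side (0.66).

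Of the 13 apoptosis genes, 2 (15.4%) were higher and 0 lower, beside 9.63% and 13.6% of all genes. The median difference of the 13 was 0.14, near that of all genes. Bax (Entrez Gene 12028), which permeabilises the outer mitochondrial membrane, was detected in all 10 positive cells at 28.3, 64.2 and 106 FPKM (lowest, median and highest). In negative cells it was detected in 9, at 0.564, 27.95 and 55.5 FPKM. The sides overlapped, but 6 of 10 positive cells lay above every negative cell, and the difference of 1.67 exceeded the pooled SD of 1.24. Phlda3, a repressor of Akt, was detected in 6 of 10 positive cells (60%, 26.2 to 87.8) and in 0 of 10 negative cells (0%, 0 to 30.8). Its levels were low, with a median of 1.25 FPKM and a highest value of 52.3 FPKM, and its difference was 1.70 against a pooled SD of 1.45. Siva1 was detected in every cell, at 29.7, 246 and 634 FPKM in positive and 30.7, 85.2 and 247 FPKM in negative cells. Its difference of 0.91 lay below 1 log2 unit and within its SD of 1.34, although 5 positive cells exceeded every negative cell. Pmaip1, which encodes Noxa, was detected in 3 and 1 cells (0.98). Perp, which encodes a desmosomal protein of the p53 death programme, had similar medians of 60.1 and 62.6 FPKM and a difference of -0.46.

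Of the 13 repair and metabolism genes, 4 (30.8%) were higher and 1 (7.69%) lower, beside 9.63% and 13.6% of all genes. The median difference of the 13 was 0.29. Prkab1, a subunit of AMP-activated kinase, was detected in 7 positive and 4 negative cells (1.70), and Dcxr, a carbonyl reductase, in 7 and 3 cells (1.48). Slc19a2, a thiamine transporter, had a difference of 1.22. Polk, a translesion polymerase, had one of 1.01 that rested on 2 positive cells, and it was listed at 0 in every negative cell. Each of these differences was smaller than its pooled SD. Triap1, an inhibitor of apoptosis, was the gene counted as lower (-1.97, pooled SD 2.66). It had 2.70, 24.6 and 139 FPKM in negative cells, all 10 of which had it, and 0, 0.574 and 190 FPKM in positive cells, 4 of which had it. Its mean FPKM was nearly the same, 43.7 ± 64.9 (SD, 10 cells) in positive and 44.45 ± 44.7 (SD, 10 cells) in negative cells, so it was lower on the log scale and not in the mean. Rps27l, a ribosomal protein gene whose reads may be shared with its near copy Rps27, was abundant in every cell, with medians of 614 and 686 FPKM and a difference of -0.06.

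The p53 targets did not occur together in all positive cells. Of Mdm2, Phlda3, Plk2, Ccng1 and Btg2, a positive cell had 2 to 5 detected (median 2.5) and a negative cell 0 to 2 (median 2). Mdm2 and Phlda3 were both detected in 5 of 10 positive and in 0 of 10 negative cells. These 5 genes were picked after their values were seen, from those counted as higher, so a gap between the sides follows from the choice. Over the 44 targets, the mean log2(FPKM + 1) was 2.40 ± 0.60 (SD, 10 cells) in positive and 1.94 ± 0.30 (SD, 10 cells) in negative cells, a gap smaller than the spread of the positive cells. Cell 66 had the highest value at 3.61, followed by a cell at 3.18 with 60.8 FPKM of Cdkn1a, and the lowest positive cell, cell 39, was at 1.52. The number of targets detected had the same median on both sides, 19.5 of 44. In cell 66, 8 of the 44 targets had their highest level of the 20 cells, whereas this cell held the highest level of 4.88% of all genes. Both cells left between the limits had lower means, 1.38 and 1.44, than any cell of either side.

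**Figure D2:**
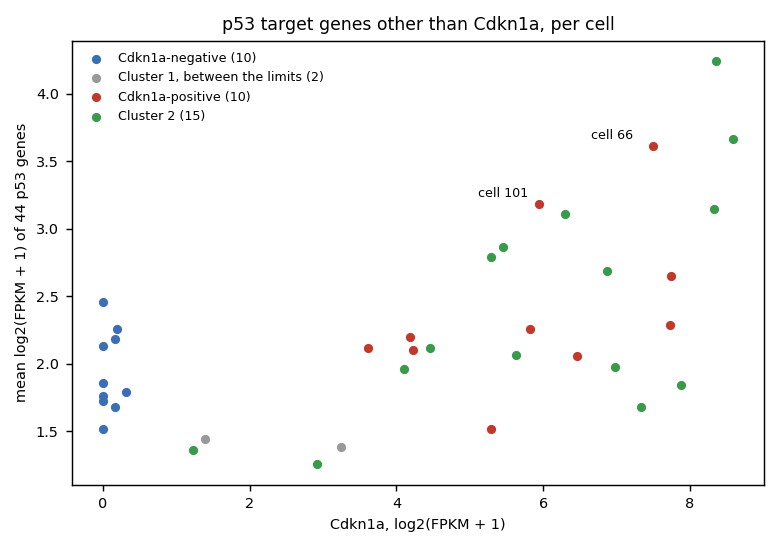
Mean log2(FPKM + 1) of the 44 p53 target genes other than Cdkn1a (vertical axis) against the log2(FPKM + 1) of Cdkn1a (horizontal axis), with 1 point per cell of the 4 sets named in the legend. The highest positive cells lie at 3.61 (cell 66) and 3.18, and the other positive cells, at 1.52 to 2.65, overlap the negative cells at 1.51 to 2.46.

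p53 itself, encoded by Trp53, was detected in all 20 cells with medians of 322 FPKM on both sides and a difference of -0.52 (pooled SD 1.08). Of the other inhibitors of cyclin-dependent kinases, 5 were in use, with 0 higher and 0 lower. Cdkn1b, which encodes p27, was at 0.210 to 10.8 FPKM in positive and 0.858 to 10.5 FPKM in negative cells, with a difference of -0.05.

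Cell cycle genes were present on both sides. For G1 cyclins and kinases, 2 of 14 (14.3%) were higher and 2 (14.3%) lower, beside 9.63% and 13.6% of all genes. The median difference of the 14 was 0.34. Ccnd2 and Ccnd1, the D-type cyclins that start G1 progression, were detected in all 20 cells, with differences of 0.54 and 0.98. Ccnd2 had medians of 465 and 292 FPKM and Ccnd1 of 50.5 and 36.7 FPKM. Cdk4, their partner kinase, had medians of 380 and 421 FPKM (-0.23). Myc, a driver of growth, was detected in 8 positive and 5 negative cells with medians of 48.2 and 0.880 FPKM. Its difference of 1.97 was smaller than its SD of 3.05, since 4 negative cells had 81.3 to 180 FPKM and the other 6 had 0 to 1.02 FPKM. By their differences alone, Cdk6 (2.08) was the other gene counted as higher, and Cdk2 (-1.90) and E2f2 (-1.29) were counted as lower; they were named after their values were seen.

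Of 50 DNA replication genes, 9 (18%) were higher and 13 (26%) lower, both above the background shares, and the median difference was -0.02. Most of these genes averaged 10 FPKM or more, and of all genes at that level 12.1% were higher and 18.3% lower. Pcna, the sliding clamp of DNA polymerase, had medians of 261 and 274 FPKM and a difference of 0.04. Mcm7, a helicase subunit, had medians of 149 and 124 FPKM (0.55). Rrm2, which encodes the ribonucleotide reductase subunit that peaks in S phase, had medians of 191 and 318 FPKM (-0.72, SD 1.89). With each cell left out in turn, the difference of Rrm2 ranged from -1.02 to -0.08. Subunits of the same machinery lay on opposite sides: Mcm2 (1.08) and Mcm5 (1.08) were counted as higher and Mcm3 (-1.50) as lower, and Pole2 (2.70) and Prim2 (1.92) as higher but Pola1 (-1.63) as lower. These pairs were picked after their values were seen. The mean log2(FPKM + 1) over the list was 4.06 ± 0.83 (SD, 10 cells) in positive and 4.18 ± 0.55 (SD, 10 cells) in negative cells.

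Of 60 genes of G2 and mitosis, 5 (8.33%) were higher and 10 (16.7%) lower, close to the background, with a median of -0.27. Stmn1, a tubulin-binding protein of dividing cells, had medians of 845 and 659 FPKM (0.49), and Hmgb2, a chromatin protein, 209 and 226 FPKM (-0.15). Cks2, a binding partner of cyclin-dependent kinases, had medians of 202 and 228 FPKM (-0.43). Mki67, which encodes the proliferation antigen Ki67 and was added after its values were seen, was detected in 8 positive and 9 negative cells, with a difference of 0.05. Cks1b (-2.43), Tacc3 (-2.13) and Plk1 (-1.73) had the lowest differences of the list, and Anln (1.61) and Cdc25c (1.51) the highest. These genes were named after their values were seen. The mean log2 level of the list was 3.61 ± 1.24 (SD, 10 cells) in positive and 3.86 ± 0.91 (SD, 10 cells) in negative cells. For both lists the gap between the sides was smaller than either SD.

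**Figure D3:**
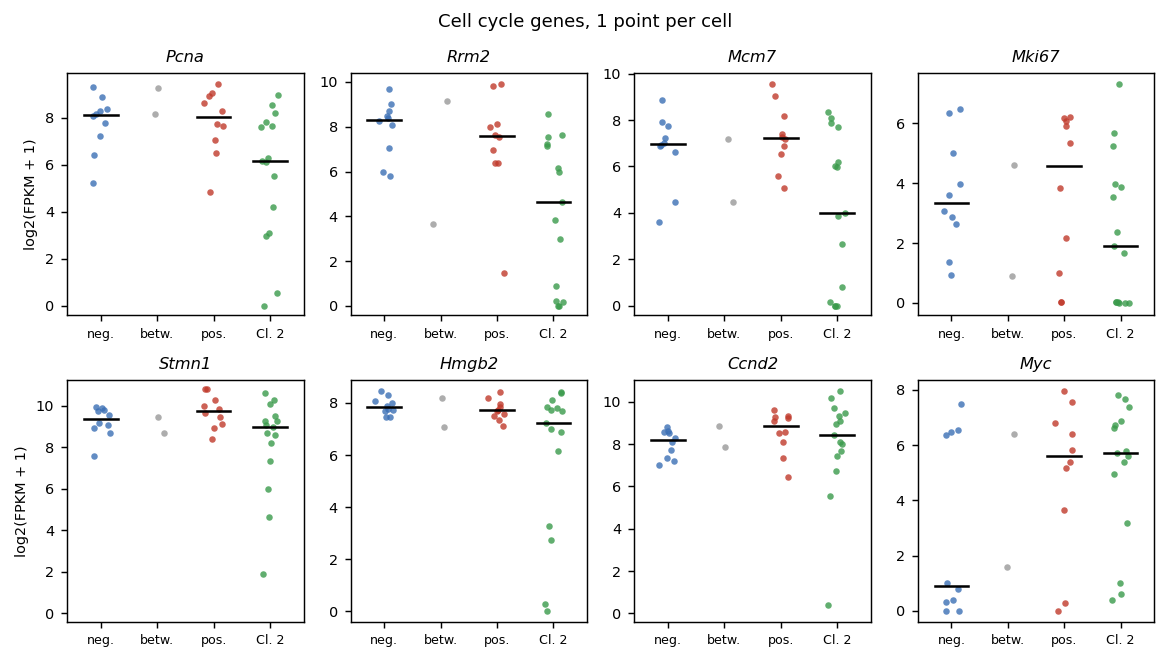
Level of 8 cell cycle genes in single cells as log2(FPKM + 1), with the sets and medians drawn as in the plot of p53 targets. Positive and negative cells overlap in every panel, and Myc is high in 4 negative cells and at or below 1.02 FPKM in the other 6.

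Of 35 crypt base stem cell genes, 1 was higher (2.86%) and 5 were lower (14.3%), the latter close to the background of 13.6%. Their median difference was -0.37, and 11 of 35 lay above 0, beside 4232 of all 9202 genes. The study formed Cluster 1 on genes of this kind, and the division by Cdkn1a did not use them. Ifitm3 (0.28) and Cdca7 (-0.38) were detected in all 20 cells. Lgr5, the receptor that defines crypt base columnar cells, was detected in 1 positive and 3 negative cells, and its highest value, 82.0 FPKM, was in positive cell 93. The genes counted as lower, named after their values were seen, were Cyp2e1 (-1.43), Soat1 (-1.33), Ascl2 (-1.12), Pla2g4a (-1.12) and Lrig1 (-1.03), and Tnfrsf19 (1.03) was counted as higher. Ascl2 is the transcription factor that maintains the crypt stem cell programme.

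Targets of YAP and genes of the regenerating epithelium gave 2 higher (12.5%) and 2 lower (12.5%) genes of 16, with a median of 0.48. Of all genes 9.63% were higher and 13.6% lower. Krt18, a keratin, had medians of 998.5 and 628 FPKM (0.60), and S100a10, a calcium-binding protein, 225 and 213 FPKM (0.49). Its partner Anxa2 was detected in 8 and 9 cells and had a difference of -1.84 within an SD of 3.16. Crip2 (2.74) and S100a6 (1.57) were counted as higher, and Cyr61 (-1.25) as lower, all named after their values were seen.

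In the Notch pathway a ligand on a cell sets the fate of its neighbour. Of the 9 genes in use, 2 (22.2%) were higher and 1 (11.1%) lower, with a median of -0.46. Over all genes the shares were 9.63% and 13.6%. Jag1, a ligand, was detected in 9 positive cells with a median of 6.70 and a highest value of 31 FPKM, and in 3 negative cells, which reached 5.20 FPKM. Its difference of 1.90 exceeded the pooled SD of 1.26, and 6 positive cells lay above every negative cell. Hes1, a target of Notch, was detected in all 20 cells with medians of 11.6 and 26.2 FPKM and a difference of -1.26 (SD 1.57). Nrarp (1.82), another target, was counted as higher and was named after its value was seen.

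Stress programmes had mixed directions, and the shares over all genes were 9.63% higher and 13.6% lower. In the integrated stress response, 1 of 12 genes (8.33%) was higher and 3 (25%) lower, with a median of 0.35. Atf4, its central transcription factor, was detected in 7 and 9 cells with medians of 9.49 and 84.1 FPKM (-2.26, SD 2.67). Herpud1 (-2.88) and Ppp1r15a (-1.62) were the other lower genes and Xbp1 (1.49) the higher one, named after their values were seen. Of 19 immediate early genes, which can be switched on while tissue is dissociated, 2 (10.5%) were higher and 4 (21.1%) lower (median 0.06). Egr1 had a difference of 1.51 and Fos one of -1.73, both within SDs above 2.9 log2 units, and Fos reached 722 FPKM in positive and 589 FPKM in negative cells. Of 17 oxidative stress genes 3 (17.6%) were higher and 1 (5.88%) lower (median 0.33). Prdx1, a peroxidase, was detected in every cell, at 990, 1334 and 2032 FPKM in positive and 788, 1146 and 1390 FPKM in negative cells, and its small difference of 0.33 was just above its SD of 0.31. Gpx2, a glutathione peroxidase, had a difference of -0.01.

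Interferon and antigen presentation genes were higher in 5 of 14 cases (35.7%) and lower in 1 (7.14%), beside 9.63% and 13.6% of all genes. The median difference of the 14 was 0.37. Psmb8, an immunoproteasome subunit, was detected in 7 and 4 cells (2.13, SD 2.90). B2m and H2-K1, of MHC class I, had differences of 0.28 and -0.17. Psmb8 and the other higher genes Ifi27, Ifi35 and Psmb9 were named after their values were seen.

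Of 31 DNA damage sensing and repair genes, 7 were lower (22.6%, background 13.6%) and 4 higher (12.9%, background 9.63%), with a median of -0.52. Lower genes also made up 58.5% of all genes past 1 log2 unit. Xrcc6, which encodes Ku70 of end joining, was detected in 8 and 10 cells with medians of 12.2 and 76.2 FPKM (-1.94, SD 2.30). Chek2 (-2.46) and the mismatch repair gene Msh6 (-1.75) were also lower, and Rad50 (2.39), Fancd2 (1.65) and Nbn (1.54) higher, named after their values were seen. Among 10 genes of the BCL2 family, caspases and their inhibitors, 1 was higher and 1 lower. Casp8, the initiator caspase of death receptors, was detected in 5 and 9 cells (-1.63, SD 2.19), and Cflar, its inhibitor, in all 20 cells (-0.97, SD 1.18).

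**Figure D4:**
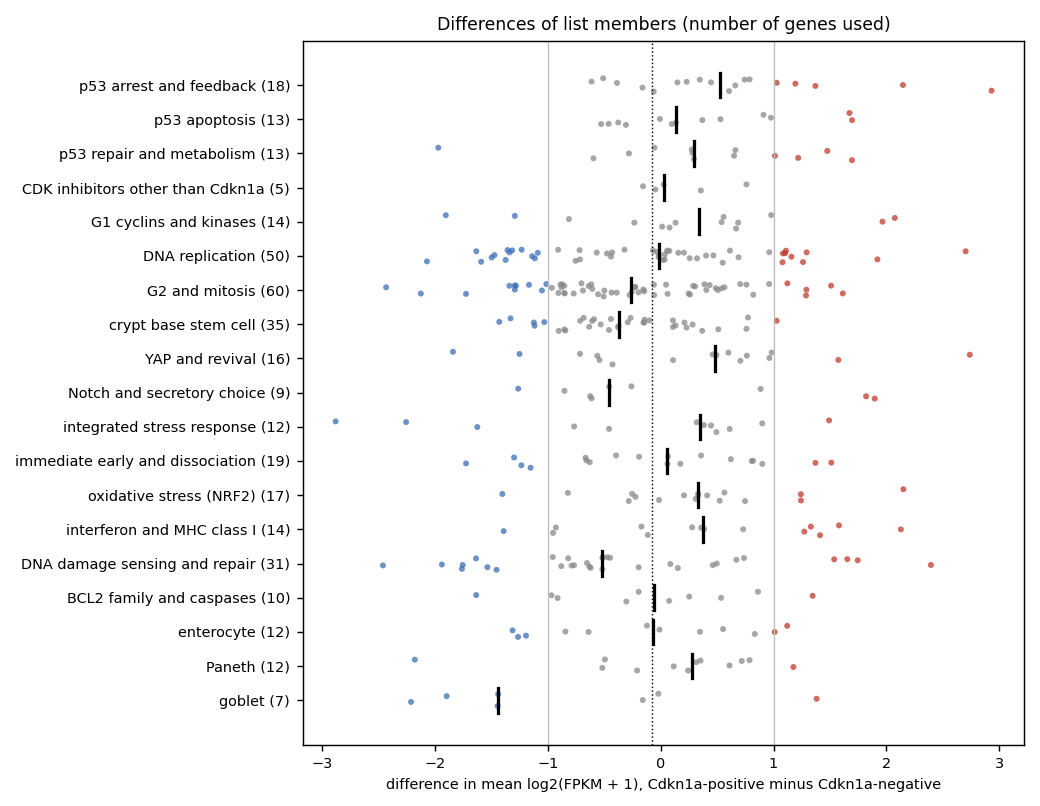
Difference in mean log2(FPKM + 1), Cdkn1a-positive minus Cdkn1a-negative, for the genes of each list with at least 5 genes in use, whose number is in parentheses. Each point is a gene, in red at 1 or more and in blue at -1 or less, black bars are list medians, and the dotted line is the median of all genes (-0.08). The arrest and feedback list has its median at 0.53 and no gene below -1, and goblet genes have the lowest median, -1.44.

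RNA of differentiated epithelial cells was found on both sides, and its part in the differences above was not tested. Of 13 goblet cell genes 7 were in use, with 1 higher (14.3%) and 4 lower (57.1%), beside 9.63% and 13.6% of all genes. The median difference of the 7 was -1.44. The summed level over all listed goblet genes was 37.6 to 889 FPKM (median 146) in positive cells. In negative cells it was 19.4 to 5430 FPKM (median 254). The highest value belonged to cell 65, and the next negative cell had 604 FPKM. Tff3, a mucus peptide, had medians of 7.81 and 12.2 FPKM (-1.44), and Agr2, a folding enzyme of mucin-making cells, 75.9 and 100.2 FPKM (-0.16). Spdef, the transcription factor of goblet and Paneth cells, was at 0 in all 20 cells, and Muc2, the main intestinal mucin, stayed under 1 FPKM. Of 12 Paneth cell genes in use, 1 was higher and 1 lower (median 0.28), with Defa24 at 1.18 and Itln1 at -2.18, and the summed level of all 15 was 8.75 to 3066 FPKM in positive and 141 to 1682 FPKM in negative cells. Defensin genes are near copies of each other, so their separate values are uncertain. Of 12 enterocyte genes in use, 2 were higher and 3 lower (median -0.07), with 237 to 2147 and 361 to 872 FPKM in sum over all 20 listed. Fabp2 had a difference of 0.55, and Sis and Apoa4 were at 0 in all 20 cells.

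Markers of enteroendocrine, tuft and stromal cells were low or at 0, whereas MHC class II RNA was high in single cells of both sides. Of 17 enteroendocrine genes, 16 were at 0 in all 20 cells, Chga and Neurod1 included, and 0 reached 1 FPKM. Of 11 stromal and endothelial genes, 10 were at 0, Col1a1 and Pecam1 included, and Vim reached 3.29 FPKM in cell 66. Of 16 immune genes 12 were at 0, the T and B cell markers Cd3e and Cd79a included, Ptprc, a marker of all leukocytes, stayed under 1 FPKM, and Cd74 and H2-Aa, of MHC class II, reached 1 FPKM. Cd74 was detected in 4 positive and 5 negative cells, with highest values of 229.5 FPKM in positive cell 30 and 260 FPKM in negative cell 18, and H2-Aa in cell 18 alone, at 97.7 FPKM. The summed level of the immune list was 0 to 229.5 FPKM (median 0.264) in positive and 0 to 358 FPKM (median 1.22) in negative cells, and its part in the differences was not tested. Of 13 tuft cell genes measured, 4 reached 1 FPKM, and their sum was at most 11.7 FPKM in positive and 29.9 FPKM in negative cells.

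The largest differences between the sides were in genes outside the p53 lists. The rule for naming them took genes that averaged 10 FPKM or more in the higher side and were detected in 50% or more of its cells. In the positive cells, Nup88, a protein of the nuclear pore, had 12.1, 71.2 and 232 FPKM (lowest, median and highest), and in negative cells 0, 0.505 and 164 FPKM. It was detected in 10 and 4 cells, and its difference of 4.21 was more than the pooled SD of 2.06. Aaas, a further nuclear pore protein, had a difference of 3.40. Ctsz, a lysosomal protease, was detected in all 10 positive cells with a median of 202 FPKM and in 7 negative cells with a median of 37.9 FPKM (3.33). In 9 of 10 positive cells Ctsz lay above every negative cell, and cell 86, at 6.50 FPKM, was the exception. Zc3h14, an RNA-binding protein of the poly(A) tail, was detected in 9 and 4 cells with medians of 44.8 and 0.465 FPKM (3.25), and in 0 of 15 cells of Cluster 2. Nudt5, which hydrolyses ADP-ribose, was detected in 10 and 7 cells with medians of 100.6 and 37.5 FPKM (3.22).

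Wrap53, a component of Cajal bodies, was detected in 7 and 4 cells (3.08). It is the neighbour of Trp53 on the opposite strand. As deposited it begins at 69579324 of chromosome 11 and Trp53 at 69580359, so the gene models do not overlap, but the sources used here do not say whether reads were assigned by strand. Uso1, a vesicle tether of the Golgi, was detected in 7 positive and 0 negative cells (2.96). Rdm1, an RNA-binding protein linked to recombination (2.95), Gcdh, a mitochondrial dehydrogenase (2.94), and Itfg3 (2.94) completed the 10 highest.

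The lowest difference was that of 1810058I24Rik, at -4.08 against a pooled SD of 1.04. In negative cells it had 2.49, 34.2 and 55.1 FPKM and was detected in all 10, and in positive cells it was at 0 to 4.44 FPKM and detected in 3. Of the positive cells 9 lay below every negative cell. Chsy1, a chondroitin synthase, was detected in 9 negative cells with a median of 31.96 FPKM and in 1 positive cell, cell 36, at 37.2 FPKM (-3.89). Pdhb, a subunit of the pyruvate dehydrogenase complex, had 99.1, 348 and 494 FPKM in negative and 0.156, 82.3 and 156 FPKM in positive cells, 8 of which lay below every negative cell (-3.21, pooled SD 1.84). Mmadhc, which directs vitamin B12 to its enzymes, had medians of 148 and 9.59 FPKM in negative and positive cells (-3.59). The others were Rhpn2 (-3.80), the folate carrier Slc19a1 (-3.58), the potassium channel Kcnq1 (-3.33), the ubiquitin ligase Rnf185 (-3.31), the ribonuclease inhibitor Rnh1 (-3.31) and 5730408K05Rik (-3.17). With no test, extremes among 9202 genes are values of these 20 cells and nothing more.

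**Figure D5:**
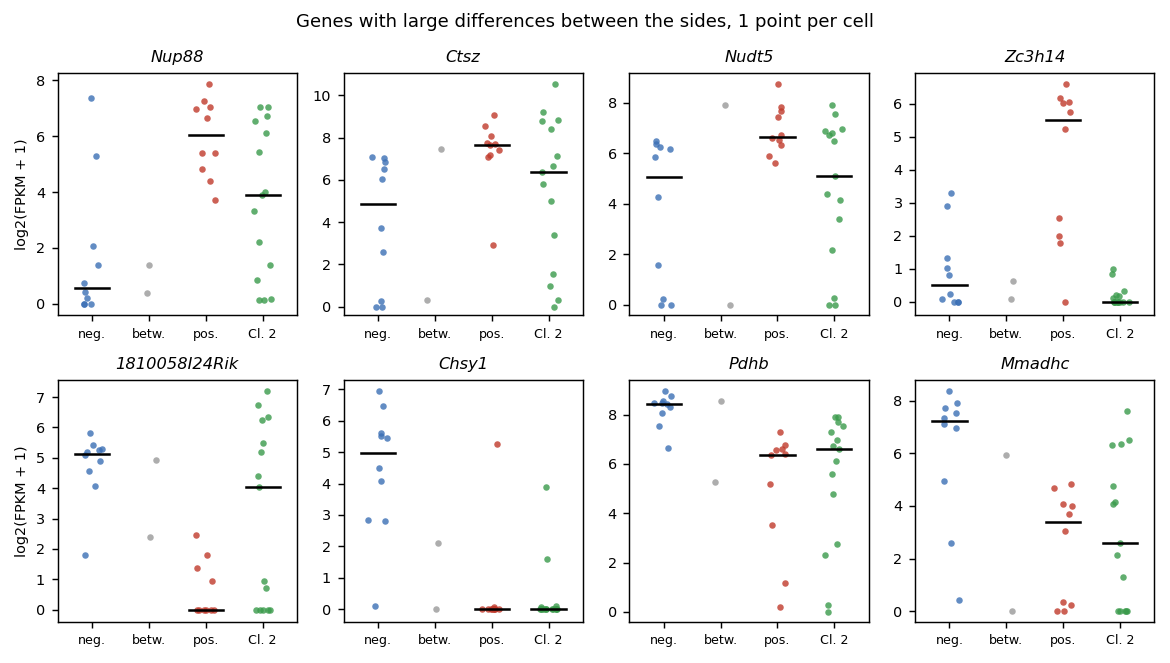
Level of 8 genes with large differences between the sides in single cells, as log2(FPKM + 1), with sets and medians drawn as in the plot of p53 targets. 1810058I24Rik is near 0 in the positive cells, at most 4.44 FPKM, and Zc3h14 is detected in 9 positive cells but in 0 cells of Cluster 2.

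Likeness to Cdkn1a was also ranked over all 22 cells of Cluster 1, the 2 cells between the limits included. Among 4294 genes detected in at least 11 cells, the highest Spearman correlations were those of Fadd, the adaptor of death receptors (0.72), Trmt112, an activator of methyltransferases (0.69), Jag1 (0.67), Dynlt1a (0.64) and Itpripl1 (0.63). The lowest were 1810058I24Rik (-0.84), Chsy1 (-0.75), Pdhb (-0.73), Pola2, a subunit of DNA polymerase alpha (-0.67), and Kcnq1 (-0.65). The points share 1 biological sample, and the sides that these correlations follow were formed on Cdkn1a. Fadd had 1.86, 11.5 and 132 FPKM in positive cells and 0, 2.005 and 5.70 FPKM in negative cells, and 7 positive cells lay above every negative cell. Trmt112 had medians of 133 and 30.2 FPKM and was detected in all 20 cells. Pola2 had medians of 56.3 and 105 FPKM.

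The p53 targets were also set beside Cdkn1a whatever the number of cells they were detected in. Over the 44 genes the median Spearman correlation with Cdkn1a was 0.12, against -0.05 for all genes, and 28 were above 0, as were 3872 of 9201 genes. The highest were Phlda3 (0.57), Mdm2 (0.53), Trp53inp1 (0.53) and Bax (0.51). The 15 cells of Cluster 2, which did not enter the selection, gave a median of 0.33 against 0.00 for all genes, with 37 of 44 above 0, as were 4450 of 8922 genes. There Trp53inp1 had 0.64, Mdm2 and Phlda3 0.45 each, and Bax 0.00. Within the 10 positive cells alone Trp53inp1 had 0.61, Mdm2 0.27, Bax 0.18 and Phlda3 -0.02. Levels in Cluster 2 may be set beside those of Cluster 1. Mdm2 was detected in 9 of 15 cells with a median of 18.5 FPKM, Bax in 14 with 77.1 FPKM, Ccng1 in 12 with 50.4 FPKM, Plk2 in 13 with 24.9 FPKM and Phlda3 in 4 with 0 FPKM. The mean log2 level of the 44 targets was 2.45 ± 0.86 (SD, 15 cells). This lay inside the ranges of both the positive cells (1.52 to 3.61) and the negative cells (1.51 to 2.46).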

How the data were processed

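Libraries of 39 single cells were analysed. The study's methods state that cells were captured on a microfluidic chip and inspected for single occupancy, that cDNA was made with the SMARTer kit and libraries with Nextera XT, and that paired-end reads were sequenced. No molecular identifiers are named, so counts include amplification, and no doublets were called. The submitters' processing notes name bcl2fastq 1.8.4, TopHat2 2.0.14 and the builds mm10 and GRCm38. For each cell the authors deposited FPKM and estimated counts of 25219 genes, and 18.5% of the counts above 0 were not whole. FPKM were used as deposited, and the estimated counts for depth and, rounded, for thinning. Every value column belonged to 1 of the 39 cells.

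Cluster membership was that of the study's own heat map, by the number in each cell's title. The 22 cells of Cluster 1 were divided by Cdkn1a at 10 FPKM or more and under 1 FPKM. Expression was log2(FPKM + 1), with 1 FPKM as pseudocount. Genes averaging under 1 FPKM in the 22 cells were left out. Only descriptions were computed, since cells are not replicates. Shares have exact Clopper-Pearson 95% intervals. The members and the 23 gene lists were chosen with earlier results of these data known. Named genes were Cdkn1a and Olfm4, members of the p53 lists, up to 4 genes of highest mean in every other list, the 10 largest differences in each direction, and 5 genes in each direction by Spearman correlation with Cdkn1a. A few genes named by these rules are not reported here. Others are said to have been named after their values were seen. Tried besides were 0.1 FPKM as pseudocount, no filter or one at 10 FPKM, cells rescaled to one sum, the log2 ratio of mean FPKM, thinning to 2000000 reads, limits at 5 FPKM or at 10 FPKM alone, each cell left out in turn and, added after seeing the data, only negative cells at 0 FPKM. Gene positions are as deposited, and 60.7% of 22889 gene starts equalled those of RefSeq in GRCm38.p6. The steps were tested on simulated data. Scripts ran in Python 3.11.15 with pandas 2.3.3, scipy 1.17.1, numpy 2.4.6 and matplotlib 3.10.9.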

Additional observations from a re-analysis of the deposited data

Results flagged for a closer look

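For 63 genes whose levels are given above and for 2 measures of each cell, the side's highest or lowest cell was compared with its nearest neighbour, and a gap above Dixon's 95% critical share of the whole range marked it. Chance marks about 1 in 20 groups, and 19 of 130 (14.6%) were marked. Gaps were taken on log2(FPKM + 1), and most marks were single low cells of genes that the other cells expressed.

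Among p53-linked genes, Mdm2 stood apart in negative cell 60 at 43.1 FPKM, with the next cell at 0.241 FPKM, and Wrap53 in the same cell at 67.1 FPKM. Plk2 stood apart in negative cell 22 at 56.2 FPKM. Trp53 was low in positive cell 93 at 25.8 FPKM, with the next cell at 117 FPKM.

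Among cell cycle genes, Rrm2 was low in positive cell 66 (1.81 FPKM), Cks2 in positive cell 86 (5.22 FPKM), Cdk4 in positive cell 30 (102 FPKM) and Stmn1 in negative cell 95 (188 FPKM).

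Among stem cell and regeneration genes, Olfm4 was low in a positive cell (135 FPKM) and Lgr5 high in positive cell 93 (82.0 FPKM). Cdca7 was low in negative cell 22 (31.6 FPKM), Krt18 in negative cell 52 (86.7 FPKM), S100a10 in negative cell 14 (12.8 FPKM) and Anxa2 in negative cell 65 (0.921 FPKM).

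The others were Atf4, low in negative cell 83 (0.161 FPKM), Defa24 in positive cell 36 (0.690 FPKM), Ctsz in positive cell 86 (6.50 FPKM), 1810058I24Rik in negative cell 95 (2.49 FPKM), and Chsy1, high in positive cell 36 (37.2 FPKM).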

How the results depend on the processing

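The counts of genes past 1 log2 unit depended on the scale. Of 9202 genes, 886 (9.63%) were higher and 1248 (13.6%) lower. With a pseudocount of 0.1 FPKM these were 1649 and 2304, and with the log2 ratio of mean FPKM 1948 and 1963. Among the 4828 genes averaging 10 FPKM or more, 585 (12.1%) were higher and 18.3% were lower, larger shares than over all 9202. Higher genes made up 41.5% of those counted, and 49.8% with the ratio of means. The p53 lists had 11 of 44 genes higher and 1 lower. With the ratio of means these were 22 and 2, beside 21.2% and 21.3% of all genes, with limits at 5 FPKM 8 and 1, and without single cells 7 to 12 higher. The median of all p53 lists moved to 0.98 and that of repair and metabolism to 1.45 with the ratio of means; no other setting moved the median of a p53 or cell cycle list by more than the spread over cells. With the ratio of means the sign changed for 15 of 136 named genes, 14 of them under 1 log2 unit and Fabp1 (0.39) past it, and Triap1 had -0.02. For 136 named genes, 1175 of 1194 differences under these settings stayed within the spread over cells of the value above and 18 moved further. No paired analysis was possible because the results come from no test and no animal, litter or day is given for any cell. With 10 cells a side, a gene seen in 0 cells could be detectable in up to 30.8% of cells.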
